A study of Mus musculus with 16 samples.

Results

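The 8 genes Drd1, Drd2, Adora2a, Gpr6, Penk, Ppp1r1b, Rgs9 and Pde10a mark the projection neurons of the striatum, and were followed here in brain cortex. They were picked by symbol as a check of dissection beside the genes of cortical interneurons, and are 8 of the 55385 genes in the count table. Polyadenylated RNA was sequenced from 16 cortices of mice aged 9 months, 4 per genotype and 2 of each sex in every genotype. 5xFAD-Dp16 mice carried both genotypes described next. 5xFAD mice carry human transgenes with familial Alzheimer's disease mutations, driven by the neuronal Thy1 promoter. Dp16 mice have an added copy of a long segment of chromosome 16 whose genes match many of those on human chromosome 21, and model trisomy 21. Wild-type mice were C57BL/6J, and no animal received a treatment.

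The striatum lies directly under the cortex and is separated from it by white matter, so a cut that runs deep can carry striatal tissue into a cortical sample. Its projection neurons are GABAergic and form a direct pathway, marked by the dopamine receptor Drd1, and an indirect pathway, marked by Drd2, Adora2a, Gpr6 and Penk. In both types dopamine and adenosine act on cAMP and protein kinase A, which phosphorylates DARPP-32, the product of Ppp1r1b, and turns it into an inhibitor of protein phosphatase 1. The cortex also has cells that express some of these genes, among them deep-layer neurons with Drd1 and Ppp1r1b and interneurons with Penk. In bulk samples fewer cells of a type and less RNA per cell cannot be told apart.

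None of the 8 genes lies on chromosome 16. On GRCm38 (GENCODE M21 coordinates), Drd1 is at chr13:54051183-54055705 on the minus strand and Drd2 at chr9:49340627-49408177 on the plus strand. Adora2a is at chr10:75316877-75334784 (plus), Gpr6 at chr10:41069977-41072285 (minus) and Penk at chr4:4133531-4138819 (minus). Ppp1r1b is at chr11:98348404-98357796 (plus), Rgs9 at chr11:109225355-109298129 (minus) and Pde10a at chr17:8525372-8986648 (plus). Genes on the opposite strand overlap Ppp1r1b, Penk and Pde10a. No source used here gives the strand setting of the counting. The overlapping genes held at most 53 counts (1700003D09Rik at Ppp1r1b), 38 counts (A830012C17Rik at Penk) and 3 counts (Gm15425 at Pde10a) in any library.

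Promoter sequence from RefSeq (GRCm38.p6) was at hand for 5 of the 8 genes, in 7 windows of 250 bases before a transcription start. Since all these receptors feed into cAMP, the windows were searched for the cAMP response element, TGACGTCA, which reads the same on both strands, and on both strands for its shorter core TGACG, which the full element contains on each strand. The full element was in 1 of the 7 windows, that of Gpr6, where its first base lies 78 bases before the start, and in 1.55% of all 32851 promoter windows of that length. No other member window held the shorter core either, which 17.8% of all windows hold. The Gpr6 window is shown with the element in capitals, and a window of Drd1, which moved closely with Gpr6 from library to library, is set beside it as one without a match.
Gpr6 (chr10:41072291-41072540, minus strand): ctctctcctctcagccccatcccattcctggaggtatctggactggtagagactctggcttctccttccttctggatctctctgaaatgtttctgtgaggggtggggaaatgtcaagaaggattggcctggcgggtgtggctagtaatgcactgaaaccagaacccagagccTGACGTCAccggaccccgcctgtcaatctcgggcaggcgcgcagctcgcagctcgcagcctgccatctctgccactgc
Drd1 (chr13:54055659-54055908, minus strand): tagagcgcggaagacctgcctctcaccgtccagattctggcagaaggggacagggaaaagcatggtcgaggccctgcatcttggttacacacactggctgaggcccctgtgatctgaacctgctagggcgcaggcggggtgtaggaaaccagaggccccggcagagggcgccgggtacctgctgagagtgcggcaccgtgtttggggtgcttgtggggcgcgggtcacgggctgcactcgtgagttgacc

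Libraries held 16874481 to 22912168 counts, the sex label matched expression in 16 of 16 libraries, and all 8 markers passed the low-count filter, with 167 counts (Gpr6) or more in every library. Levels are the deposited RPKM values (reads per kilobase of transcript, scaled to the total counts of the library), which allow genes of different length to be compared. The labelled tissue was checked with Slc17a7, the vesicular glutamate transporter of cortical excitatory neurons, which had a median of 272 RPKM over the libraries (95.8 to 372). The choroid plexus marker Ttr ran from 4.13 to 1910 RPKM (median 31.3). The labels name no litter, dissection date or batch, and say only that the samples are separate, so p-values measure the spread between these samples.

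The striatal markers were well above the floor of detection in every library. Median levels over the 16 libraries were 319 RPKM for Penk, which encodes the enkephalin precursor, and 155 RPKM for Ppp1r1b. The receptors and signalling enzymes were lower, at 18.6 RPKM for Adora2a, 16.4 for Drd1, 15.1 for Pde10a, 10.9 for Gpr6, 10.7 for Drd2 and 9.65 for Rgs9. Among protein-coding genes tested, their mean RPKM ranked from the 61.1 percentile (Rgs9) to the 98.6 percentile (Penk). For scale, median levels of the interneuron genes Sst, Gad1 and Vip were 621, 56.4 and 35.2 RPKM.

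These markers were among the more variable genes of the tissue. The highest library exceeded the lowest 3.13-fold for Drd1 and 4.75-fold for Adora2a, the ends of the range over the 8 genes. Within genotypes, the SD of log2 CPM was 0.43 (Ppp1r1b) to 0.67 (Adora2a). Unlike RPKM, log2 CPM scales counts to the library total times a TMM normalization factor. These SDs were larger than those of 77.6% to 98.8% of the 8407 genes whose mean log2 CPM was 4 or more. The summed RPKM of the 8 markers was 649 ± 66.1 in 5xFAD-Dp16, 427 ± 134 in 5xFAD, 548 ± 203 in Dp16 and 540 ± 131 in wild-type (SD, n = 4 each). The range was narrowest in 5xFAD-Dp16, at 570 to 727 RPKM, against 251 to 575 in 5xFAD, 253 to 716 in Dp16 and 428 to 728 in wild-type, and all of these ranges overlap. Penk weighs most in this sum. Without Penk the sum was 246 to 293 RPKM in 5xFAD-Dp16 and 121 to 241 in 5xFAD, which did not overlap. Ppp1r1b weighs most in the sum without Penk, and by itself did not overlap in RPKM (162 to 191 against 83.2 to 158). By log2 CPM 3.21% of all genes had no overlap between these 2 groups. That share counts single genes on another scale, so it is no yardstick for a sum of RPKM. The sum without Penk was 100 to 298 in Dp16 and 139 to 316 in wild-type.

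**Figure D1:**
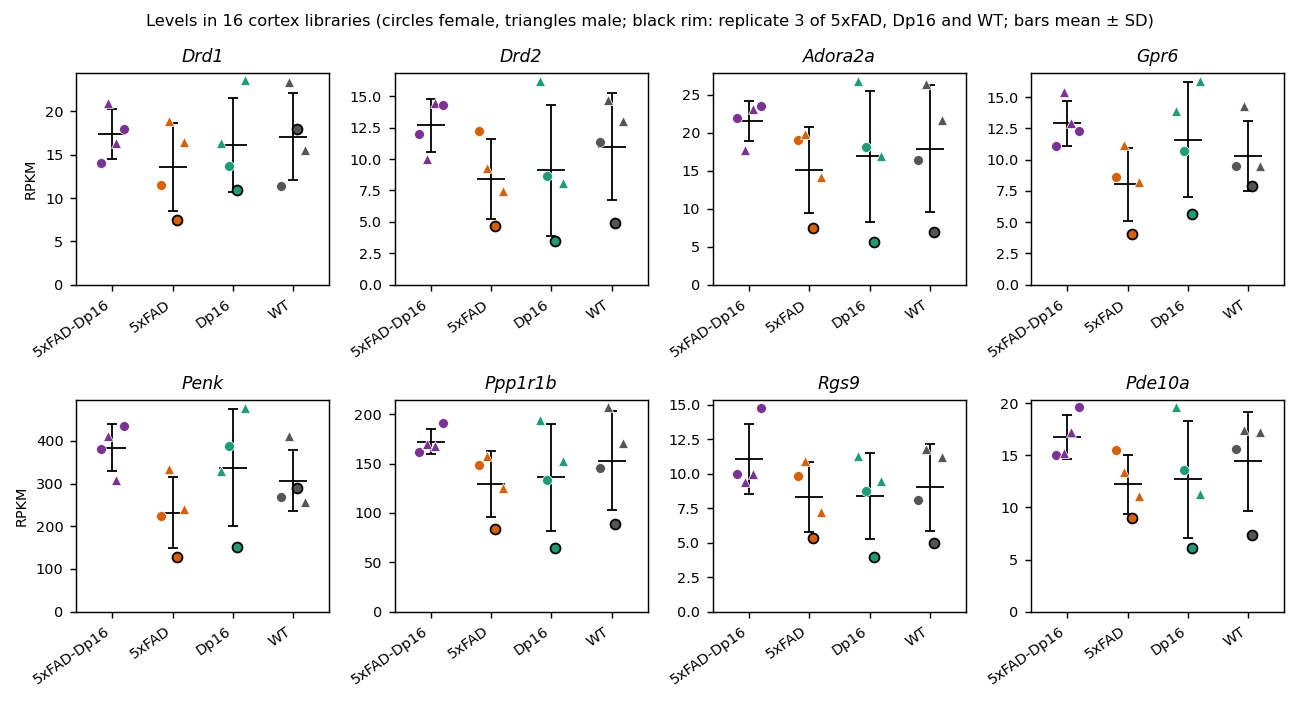
Each panel plots the RPKM of 1 marker (y axis, from 0) in the 16 libraries by genotype (x axis). Circles are females, triangles males, horizontal bars the mean and whiskers the SD of 4 libraries. Replicate 3 of 5xFAD and of Dp16 (black rims) lie at the bottom of their groups in every panel, and replicate 3 of wild-type does so for 6 of the 8 markers, but not for Drd1 and Penk.

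Drd1 encodes the dopamine receptor that raises cAMP in direct-pathway neurons. It had 14.1, 21.0, 16.4 and 18 RPKM in 5xFAD-Dp16 (replicates 1 to 4), 11.5, 18.9, 7.52 and 16.5 in 5xFAD, 16.3, 13.7, 10.9 and 23.6 in Dp16, and 11.4, 23.4, 18 and 15.6 in wild-type. All genotypes overlapped, and the lowest library was replicate 3 of 5xFAD. Drd2, the receptor that lowers cAMP in indirect-pathway neurons, had 12, 10, 14.5 and 14.3 RPKM in 5xFAD-Dp16, 12.2, 9.26, 4.68 and 7.49 in 5xFAD, 16.2, 8.69, 3.5 and 8.07 in Dp16, and 11.4, 14.7, 4.91 and 13 in wild-type. Replicate 3 was the lowest library in 5xFAD, in Dp16 and in wild-type, and was not low in 5xFAD-Dp16. It is a female in each of the groups where it was lowest and a male in 5xFAD-Dp16. The other females of those groups, replicate 1 of 5xFAD, 2 of Dp16 and 1 of wild-type, had 12.2, 8.69 and 11.4 RPKM of Drd2. The part of sex in the low libraries was not tested.

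Adora2a, the adenosine receptor that opposes Drd2 in the same cells, had 21.9, 17.7, 23.1 and 23.5 RPKM in 5xFAD-Dp16, 19.1, 19.9, 7.45 and 14.2 in 5xFAD, 26.8, 18.1, 5.64 and 17 in Dp16, and 16.4, 26.5, 6.97 and 21.7 in wild-type. The same 3 libraries stood below all others. Gpr6, an orphan receptor that raises cAMP without a known need for ligand, had 11.1, 15.4, 12.9 and 12.3 RPKM in 5xFAD-Dp16, 8.6, 11.2, 4.08 and 8.22 in 5xFAD, 13.9, 10.7, 5.69 and 16.3 in Dp16, and 9.46, 14.3, 7.90 and 9.47 in wild-type. Between 5xFAD-Dp16 and 5xFAD the overlap was of 1 5xFAD library, at 11.2, with the lowest 5xFAD-Dp16 library, at 11.1.

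Penk had 382, 412, 309 and 434 RPKM in 5xFAD-Dp16, 225, 334, 129 and 241 in 5xFAD, 329, 389, 152 and 478 in Dp16, and 269, 412, 290 and 258 in wild-type. Here too 1 5xFAD library overlapped 5xFAD-Dp16. Ppp1r1b had 162, 170, 168 and 191 RPKM in 5xFAD-Dp16, 148, 158, 83.2 and 125 in 5xFAD, 194, 133, 64.4 and 153 in Dp16, and 145, 207, 88.5 and 171 in wild-type. All 4 5xFAD-Dp16 values lay inside the range of wild-type. In RPKM they lay above all 4 5xFAD values by a narrow gap (162 against 158), but in log2 CPM these 2 groups overlapped.

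Rgs9, which speeds the switching-off of G proteins coupled to these receptors, had 10, 9.38, 9.99 and 14.8 RPKM in 5xFAD-Dp16, 9.82, 10.9, 5.35 and 7.22 in 5xFAD, 11.3, 8.74, 4.00 and 9.48 in Dp16, and 8.07, 11.8, 4.99 and 11.2 in wild-type. Replicate 4 of 5xFAD-Dp16 stood apart from the other 3 of its group. Pde10a, the phosphodiesterase that breaks down cAMP and cGMP in both pathways, had 15, 15.2, 17.2 and 19.6 RPKM in 5xFAD-Dp16, 15.5, 13.4, 8.99 and 11.1 in 5xFAD, 19.6, 13.6, 6.06 and 11.3 in Dp16, and 15.6, 17.4, 7.34 and 17.2 in wild-type. Replicate 3 was again the lowest library of 5xFAD, of Dp16 and of wild-type.

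The mean of each of the 8 markers was highest in 5xFAD-Dp16 and lowest in 5xFAD, with Dp16 and wild-type between them. Neighbours in this order differed by no more than the larger SD of the pair. Between the ends, Penk averaged 384 ± 54.5 RPKM in 5xFAD-Dp16 and 232 ± 83.7 in 5xFAD, and Gpr6 averaged 12.9 ± 1.82 RPKM in 5xFAD-Dp16 and 8.02 ± 2.94 in 5xFAD (SD, n = 4 each). At the other extreme, the means of Rgs9 in 5xFAD and Dp16 were 8.32 ± 2.51 and 8.39 ± 3.12 RPKM.

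No marker was called in any comparison by edgeR's quasi-likelihood test with Benjamini-Hochberg adjustment over 17555 genes at 0.05. In 5xFAD against wild-type, where 266 genes or 1.52% were called, 0 of 8 markers were called and 0 had an unadjusted p under 0.05, against 7.1% of all genes. All 8 log2 fold changes were below 0, with a median of −0.31, while 58.8% of all genes lay below 0 with a median of −0.05. Penk stood at −0.48 ± 0.29 (edgeR log2 fold change ± SE, adjusted p = 0.877), Drd1 at −0.44 ± 0.24 (edgeR adjusted p = 0.813) and Rgs9 at −0.12 ± 0.28 (edgeR adjusted p = 0.984). The 95% interval of Drd1 ran from −0.95 to 0.06, so a fall to 0.519 of the wild-type level lay at its lower bound. DESeq2 likewise gave 0 called and 0 with an unadjusted p under 0.05. Over the alternative edgeR settings at most 2 markers had an unadjusted p under 0.05. That count was reached with no low-count filter, without replicate 4 of wild-type, and without the 3 libraries of lowest slope of expression on gene length. The median was −0.47 without replicate 1 of 5xFAD, and it was −0.18 and −0.19, each with 7 markers below 0, without replicate 3 and without replicate 4 of 5xFAD.

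In 5xFAD-Dp16 against wild-type, 0.501% of all genes were called and again 0 of 8 markers, 0 of them with an unadjusted p under 0.05 by edgeR or DESeq2, against 4.52% of all genes. Estimates were above 0 for 7 markers, with 42.0% of all genes above 0, from 0.17 ± 0.24 for Ppp1r1b to 0.33 ± 0.36 for Adora2a, and Drd1 stood at −0.05 ± 0.24 (edgeR log2 fold change ± SE). Without replicate 3 of wild-type, Drd1 turned to 0.20, the median went to 0.13, against 0.24 with all libraries, and 8 of 8 estimates were above 0. Without replicate 4 of 5xFAD-Dp16 the median was 0.09. In Dp16 against wild-type, 0.0057% of all genes were called and 0 of 8 markers, 0 with an unadjusted p under 0.05 by either tool (2.2% of all genes by edgeR). Here 2 estimates were above 0, Gpr6 (0.11 ± 0.24) and Penk (0.07 ± 0.29), and 6 were below, with a median of −0.14, while 57.1% of all genes were below 0. That split depended on single libraries: 2 markers were below 0 without replicate 3 of Dp16 (median 0.05), and 8 were without replicate 4 of Dp16 or replicate 4 of wild-type (medians −0.13 and −0.11). The median was −0.27 without replicate 1 of Dp16 or replicate 3 of wild-type, −0.22 without replicate 2 of Dp16 and −0.05 without replicate 2 of wild-type.

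The markers came nearest to a difference in 5xFAD-Dp16 against 5xFAD. There 0.0057% of all genes and 0 of 8 markers were called by edgeR, and 0 markers by DESeq2. All 8 log2 fold changes were above 0, against 50.9% of all genes, and their median was 0.49, against 0 for all genes. An unadjusted p under 0.05 was reached by 2 markers, against 3.59% of all genes. Gpr6 stood at 0.70 ± 0.24, or 1.63-fold with a 95% interval of 1.14 to 2.33 (edgeR adjusted p = 1). Penk stood at 0.75 ± 0.29, or 1.68-fold with a 95% interval of 1.09 to 2.59 (edgeR adjusted p = 1). A two-sided exact permutation test of log2 CPM gave p = 0.0571 for each, where the smallest p that 4 against 4 libraries allow is 0.0286. Between 1 and 7 markers had an unadjusted p under 0.05 over the alternative settings without the marker level as covariate, with 7 when low counts were kept and 6 with the replicate number as a block. Leaving out replicate 1 of 5xFAD gave 6 (median 0.73), and leaving out replicate 3 of 5xFAD or replicate 4 of 5xFAD-Dp16 gave 1 (median 0.34 in both). This comparison shares the 5xFAD libraries with that of 5xFAD against wild-type.

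In 5xFAD-Dp16 against Dp16, where 0.387% of all genes were called, 0 of 8 markers were called or had an unadjusted p under 0.05 by edgeR or DESeq2, against 3.92% of all genes by edgeR. All 8 estimates were above 0, against 51.2% of all genes, from 0.11 ± 0.24 for Drd1 to 0.53 ± 0.35 for Drd2, with a median of 0.39 (edgeR log2 fold change ± SE). Without replicate 3 of Dp16 the median was 0.15 and 2 markers lay below 0, and without replicate 4 of 5xFAD-Dp16 it was 0.21 and 1 did. An edgeR unadjusted p under 0.05 was reached by 4 markers with no low-count filter, 3 with the replicate number as a block and 2 without replicate 1 of Dp16. The interaction asks whether the effect of 5xFAD differs with and without Dp16. It gave 0 calls by edgeR (0.0% of all genes) and 1 by DESeq2, none of them a marker, with 0 markers and 1.36% of all genes at an unadjusted p under 0.05. All 8 differences of log2 fold changes were above 0, against 57.1% of all genes, from 0.54 ± 0.39 for Rgs9 to 0.90 ± 0.50 for Drd2 (edgeR adjusted p = 1 for each). Over single libraries left out, the median of 0.63 ran from 0.41, without replicate 3 of Dp16, to 0.79, without replicate 1 of 5xFAD, and all 8 stayed above 0. Rgs9 was 0.27 without replicate 4 of 5xFAD-Dp16 and 0.31 without replicate 3 of Dp16. An unadjusted p under 0.05 was reached by 5 markers with no low-count filter, 4 without replicate 1 of 5xFAD, and 3 without replicate 1 of Dp16, without replicate 3 of wild-type or with the replicate number as a block, and no adjusted p was under 0.564. By log2 CPM no marker had groups without overlap in any of the 5 pairwise comparisons. By the same measure 2.91%, 5.19%, 1.56%, 3.21% and 3.09% of all genes had no overlap (in the order 5xFAD-Dp16, 5xFAD and Dp16 against wild-type, then 5xFAD-Dp16 against 5xFAD and against Dp16). In RPKM, Ppp1r1b did not overlap between 5xFAD-Dp16 (162 or more) and 5xFAD (158 or less). The share of all genes without overlap in RPKM was not counted.

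**Figure D2:**
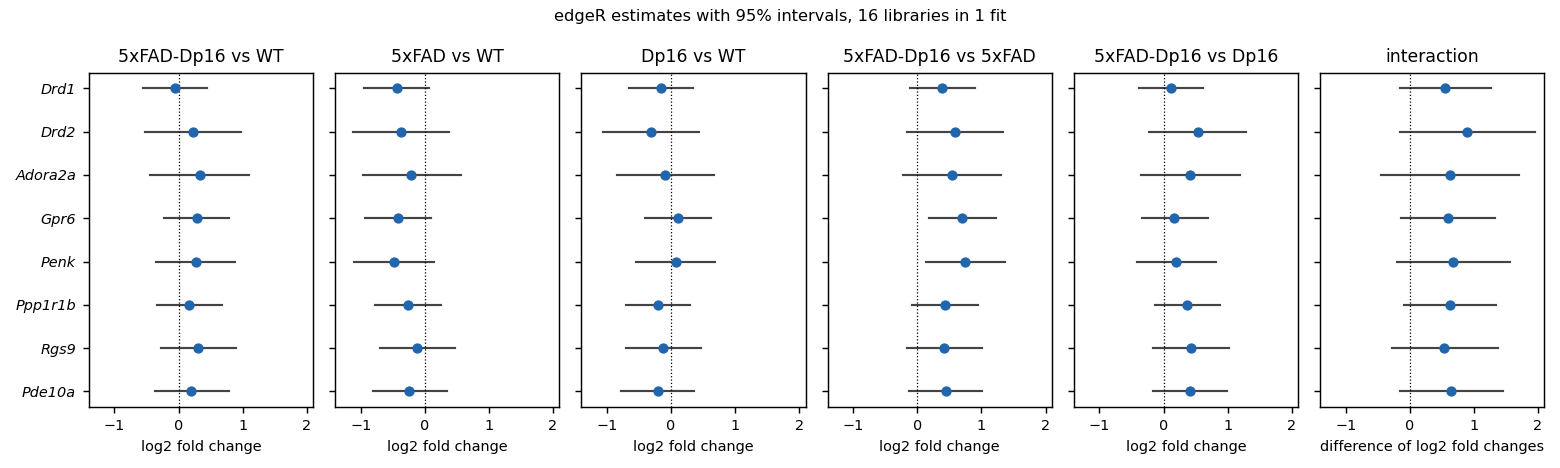
Points are edgeR log2 fold changes of the 8 markers (rows) in 5 pairwise comparisons and the interaction (columns), and lines are 95% intervals. Only Gpr6 and Penk in 5xFAD-Dp16 vs 5xFAD have intervals that leave out 0, and neither passed adjustment over all genes.

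From library to library the markers moved together, which means that the 8 directions above are not 8 separate observations. All 28 pairs had a positive Pearson r of log2 CPM over the 16 libraries (0.28 to 0.98, median 0.78). By permutation, 24 pairs had an adjusted p under 0.05, 20 did by Spearman's rho, and 19 did after group means were removed. Drd2 and Pde10a were the closest (r = 0.98, rho = 0.96, permutation adjusted p = 2.8e-05 and 5.6e-05). The unadjusted permutation p = 1e-05 of each coefficient was the smallest that 100000 resamples can give, and r was 0.97 without the 2 libraries farthest from the median of Drd2, replicate 3 of 5xFAD and of Dp16.

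The pairs fell into sets that cut across the pathways, chosen after the values were seen. Adora2a, Drd2, Rgs9, Pde10a and Ppp1r1b had r of 0.91 to 0.98 in all 10 pairs, and 0.79 to 0.97 without the 2 farthest libraries. Drd1, Penk and Gpr6 had r of 0.83 to 0.93 in 3 pairs, and 0.64 to 0.81 without them. Across the sets r was 0.28 to 0.82 in 15 pairs, and −0.05 to 0.63 without the 2 farthest libraries. Of these 15 pairs, 11 also had a permutation adjusted p under 0.05 by Pearson's r, so the sets are not sharply apart. Penk and Drd2 both mark the indirect pathway, yet their r of 0.56 (rho = 0.29, permutation adjusted p = 0.0287 and 0.297) went to −0.05 without replicate 3 of 5xFAD and of Dp16, so the relation rests on those libraries. Drd1 and Drd2 had r = 0.34 and rho = 0.18 (permutation adjusted p = 0.204 and 0.512), and r = 0.17 without the 2 libraries farthest in Drd1.

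**Figure D3:**
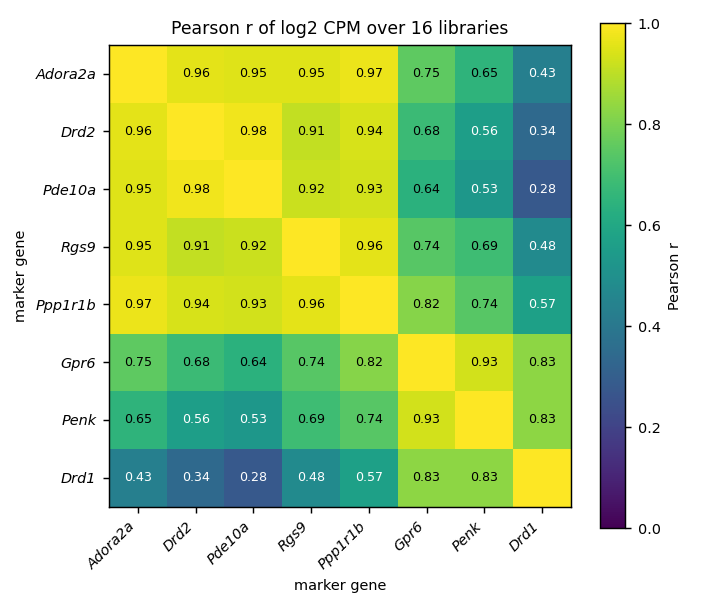
The heat map gives Pearson r of log2 CPM over 16 libraries for each pair of markers, coloured from 0 to 1. The block of Adora2a, Drd2, Pde10a, Rgs9 and Ppp1r1b holds r of 0.91 to 0.98, the block of Gpr6, Penk and Drd1 0.83 to 0.93, and the pairs between them 0.28 to 0.82.

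Replicate 3 of wild-type showed the split in part. It was among the 3 lowest libraries for Adora2a (6.97 RPKM), Drd2 (4.91) and Pde10a (7.34), but not for Drd1 (18) or Penk (290), while Gpr6 (7.90), which belongs with Drd1 and Penk in the pairs above, was also among the 3 lowest. In that library Drd1 stood at 2.58 times Adora2a. The same RPKM ratio was 1.93 in replicate 3 of Dp16 and 0.605 to 1.38 in the other 14 libraries. By group it was 0.825 ± 0.242 in 5xFAD-Dp16, 0.935 ± 0.238 in 5xFAD, 1.17 ± 0.607 in Dp16 and 1.22 ± 0.911 in wild-type (SD, n = 4 each). Slc17a7 was also lowest in replicate 3 of wild-type, at 95.8 RPKM. This library had the lowest slope of expression on gene length as well (−0.44), followed by replicates 4 and 3 of Dp16 (−0.18 and −0.17), with the others between −0.13 and 0.28.

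Over all libraries the length slope gave r of −0.52 for Drd1 to 0.61 for Pde10a. The sign of r divided the markers as the 2 sets above do. It was below 0 for Drd1, Penk (−0.25) and Gpr6 (−0.10). It was above 0 for Ppp1r1b (0.34), Rgs9 (0.37), Adora2a (0.46), Drd2 (0.56) and Pde10a. The part of the slope in the split between the sets was not tested. No marker had a permutation adjusted p under 0.05 by Pearson's r, and 2 did by Spearman's rho, Drd2 (rho = 0.62, adjusted p = 0.0467) and Pde10a (rho = 0.64, adjusted p = 0.0467). Without the 2 libraries farthest in slope, replicates 1 and 3 of wild-type, r was 0.51 for Drd2 and 0.53 for Pde10a. The part of the slope in the marker levels was not tested beyond the fits with the slope as a covariate.

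**Figure D4:**
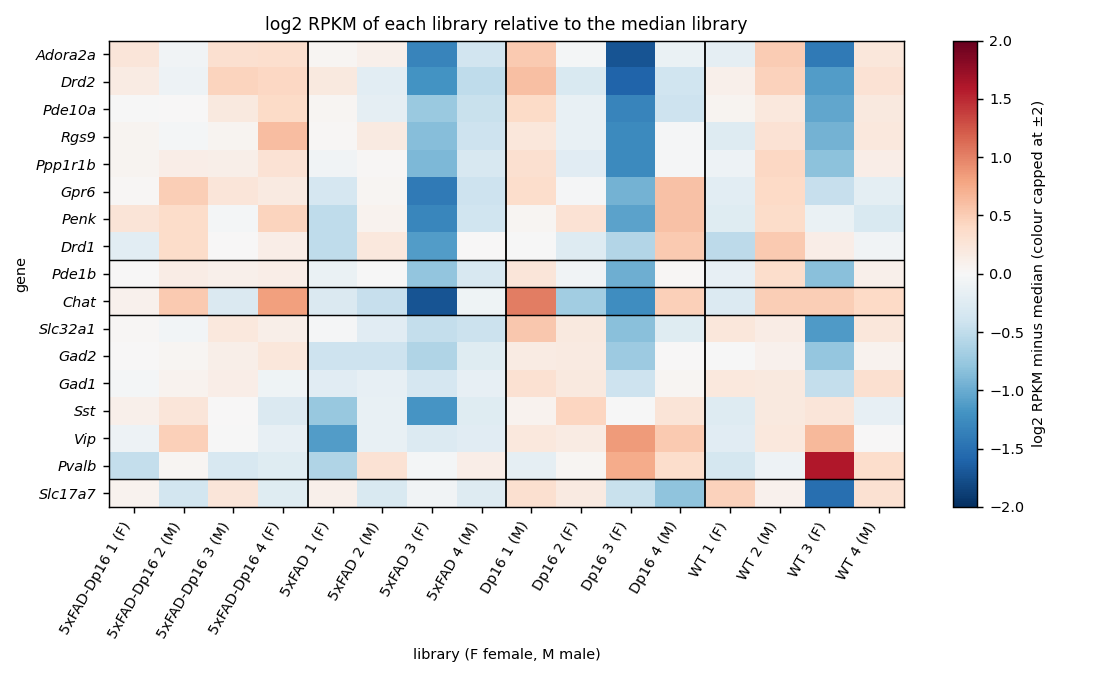
Colours give log2 RPKM of each library (columns, by genotype, F female and M male) minus the median library, for the 8 markers, Pde1b, Chat, 6 interneuron genes and Slc17a7 (rows). Replicate 3 of 5xFAD and of Dp16 are low in all 8 markers, and replicate 3 of wild-type is low in 6 markers and in Slc17a7 but high in Pvalb.

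The 10 genes whose log2 CPM was most like the mean standardized level of the 8 markers, of 13489 genes whose mean log2 CPM was 1 or more, were led by Pde1b (r = 0.98 over 16 libraries), a phosphodiesterase driven by calcium and calmodulin. Syndig1l had r = 0.95. Hpca, a neuronal calcium sensor, had r = 0.94. Also among the 10 were Cd4 (0.93), Sh3rf2 (0.92), Dgkb (0.91), Rarb (0.90), Asic4 (0.89) and Dach1 (0.89). Only 4 of the 10 are on the projection neuron lists used here, and genes of those lists differed in how far they went with the markers. Of the 25 list genes besides the markers that were at or above that level, 24 had a positive r, with a median of 0.69 and a range of −0.29 to 0.98. Pdyn (0.78) lay above the median. Chrm4, a muscarinic receptor of the direct pathway (0.46), Foxp1 (0.37), Tac1, the substance P precursor (0.33), Ppp1r16b (0.20), Sfxn1 (0.11) and Eya1 (−0.29) lay below it. These values describe libraries that share depth and composition.

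The wider list of 26 projection neuron genes besides the markers held 0 called genes in each comparison by edgeR. In 5xFAD against wild-type 22 of 26 were below 0, with a median of −0.25, against 58.8% of all genes with a median of −0.05. An unadjusted p under 0.05 was reached by 2 of the 26, near the share of 7.1% of all genes. These were Pdyn, the dynorphin precursor of the direct pathway (−0.45 ± 0.18), and Gpr149 (−0.96 ± 0.38). In 5xFAD-Dp16 against 5xFAD 24 of 26 were above 0, with a median of 0.35, against 50.9% of all genes. An unadjusted p under 0.05 was reached by 2 of the 26, against 3.59% of all genes, and 1 of them was Pdyn, at 0.47 ± 0.18 (edgeR log2 fold change ± SE). Of 26 genes of dopamine and cAMP signalling around DARPP-32, 24 were tested, Drd3 and Drd4 being too low, and 0 were called in any comparison. In 5xFAD against wild-type 20 of the 24 were below 0 (median −0.24), against 58.8% of all genes. An unadjusted p under 0.05 was reached by 3 of the 24, against 7.1% of all genes. These were Prkar2b, a regulatory subunit of protein kinase A (−0.28 ± 0.11, edgeR adjusted p = 0.494), and the calcineurin subunits Ppp3cb (−0.29 ± 0.12, edgeR adjusted p = 0.568) and Ppp3r1 (−0.29 ± 0.12, edgeR adjusted p = 0.605).

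Striatal and basal forebrain tissue also brings cholinergic neurons. Chat, which makes acetylcholine, was low, at 1.28 ± 0.422 RPKM in 5xFAD-Dp16, 0.701 ± 0.278 in 5xFAD, 1.12 ± 0.749 in Dp16 and 1.25 ± 0.281 in wild-type (SD, n = 4 each). Its 2 lowest libraries were replicate 3 of 5xFAD (0.305) and of Dp16 (0.424), which were among the 3 lowest for all 8 markers. Replicate 3 of wild-type, among the 3 lowest for 6 markers, had 1.41 RPKM of Chat. All 5 cholinergic genes tested were below 0 in 5xFAD against wild-type (median −0.70) and above 0 in 5xFAD-Dp16 against 5xFAD (median 0.93), with 0 called by edgeR in each. The shares of all genes on those sides of 0 were 58.8% and 50.9%. Choroid plexus genes, 10 in number, had medians of −0.44 and 2.27 in the same comparisons, with 0 called. Their summed level ran from 8.74 to 1961 RPKM in 5xFAD-Dp16, 15 to 541 in 5xFAD, 6.81 to 1059 in Dp16 and 10.5 to 265 in wild-type, and their part in the marker levels was not tested.

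Genes of other cell types and neighbouring regions were counted in the same way, and 0 were called by edgeR in any comparison. Of 16 excitatory neuron genes of cortex, 13 were below 0 in 5xFAD against wild-type (median −0.18), against 58.8% of all genes. In 5xFAD-Dp16 against 5xFAD 11 were above 0 (median 0.08), against 50.9% of all genes. Ccn2, a marker of the deepest cortical layer beside the white matter, stood at −0.76 ± 0.19 in 5xFAD against wild-type (edgeR adjusted p = 0.0703), nearest to the threshold of all list genes there. Thalamus genes had medians of −0.18 and −0.03 over 7 genes in these 2 comparisons, with Slc17a6, a vesicular glutamate transporter, at −0.61 ± 0.17 in 5xFAD against wild-type (edgeR adjusted p = 0.134). The medians were 0.07 and −0.02 over 5 dentate gyrus genes, −0.12 and −0.13 over 4 claustrum genes, and −0.20 and −0.30 over 4 genes of olfactory bulb and immature neurons.

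Most genes of cortical inhibitory neurons lay on the same side of 0 as the striatal markers in 2 comparisons. These were 5xFAD with wild-type and 5xFAD-Dp16 with 5xFAD, which share the 5xFAD libraries. In the remaining 3 the genes were split, with more of them on the other side but medians of only −0.09 to 0.04. Of 29 such genes, 28 were below 0 in 5xFAD against wild-type (median −0.34), against 58.8% of all genes, 0 were called by edgeR, and 4 had an unadjusted p under 0.05, against 7.1% of all genes. Sst, the somatostatin precursor, averaged 431 ± 135 RPKM in 5xFAD and 630 ± 110 in wild-type (SD, n = 4 each), a log2 fold change of −0.64 ± 0.22 (edgeR adjusted p = 0.339). Vip averaged 26.8 ± 7.19 RPKM in 5xFAD and 40.4 ± 10.8 in wild-type (−0.67 ± 0.28, edgeR adjusted p = 0.579). Gad1, which makes GABA, averaged 48.4 ± 2.54 RPKM in 5xFAD and 60.2 ± 13.4 in wild-type (−0.35 ± 0.14, edgeR adjusted p = 0.527). In 5xFAD-Dp16 against 5xFAD 26 of 29 were above 0 (median 0.25), against 50.9% of all genes, 0 were called, and 6 had an unadjusted p under 0.05, against 3.59% of all genes, with Cort, the cortistatin precursor, at 0.88 ± 0.24 (edgeR adjusted p = 0.977) and Gad2 at 0.50 ± 0.17 (edgeR adjusted p = 1). In 5xFAD-Dp16 against wild-type 19 of 29 were below 0 (median −0.07), where 7 of the 8 markers were above. The other 10 were above 0, against 42.0% of all genes (median −0.04). In Dp16 against wild-type 17 of 29 were above 0 (median 0.04), where 6 markers were below. The other 12 were below 0, against 57.1% of all genes (median −0.03). In 5xFAD-Dp16 against Dp16 19 of 29 were below 0 (median −0.09), where 8 markers were above. The other 10 were above 0, against 51.2% of all genes (median 0.01). In each of these 3 comparisons 0 inhibitory neuron genes were called by edgeR.

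Which interneuron genes moved with the markers was asked over the 16 libraries, in 232 relations chosen after the values were seen. By Pearson's r 23 had a permutation adjusted p under 0.05, all of them positive, 6 did by Spearman's rho, and 2 did with group means removed. Genes of the GABA machinery, which striatal projection neurons share, held most of the 23. Gad2 passed with 7 markers (r of 0.41 to 0.82 over the 8), Slc32a1, the vesicular GABA transporter, with 5 (0.06 to 0.91) and Gad1 with 4 (0.34 to 0.69). Slc32a1 and Pde10a were closest, at r = 0.91 and rho = 0.85 (permutation adjusted p = 0.00174 and 0.0145), with r = 0.86 without replicate 3 of Dp16 and of wild-type. Vip (r of −0.47 to 0.44) and Pvalb (−0.67 to 0.31) passed with none of the 8 by either coefficient, and Sst passed with Drd1 (r = 0.72, rho = 0.54, permutation adjusted p = 0.0271 and 0.167) and Penk (r = 0.70, rho = 0.55, adjusted p = 0.038 and 0.155). Without the 2 libraries farthest in each marker, r was 0.47 for Drd1 with Sst and 0.69 for Penk with Sst.

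The genotype comparisons were then fitted with the mean standardized level of the 8 markers in each library as a covariate, a fit added after the values were seen. For the other 26 projection neuron genes, the median in 5xFAD against wild-type went to −0.04, with 14 of 26 below 0, and in 5xFAD-Dp16 against 5xFAD to 0.02, with 13 above 0. Most of these genes follow the same marker level from library to library (median r of 0.69 above). Their move towards 0 was thus largely set by the choice of covariate and is no check of the fit. For the 29 inhibitory neuron genes, 28 were below 0 in 5xFAD against wild-type (median −0.27), against 54.4% of all genes in the same fit. Of them 0 were called by edgeR, against 1.31% of all genes, and 6 had an unadjusted p under 0.05, against 9.22%. Single genes differed in how far they moved. Slc32a1 went to −0.01 ± 0.22 with the covariate, against −0.25 ± 0.25 without it, and Gad2 to −0.16 ± 0.15, against −0.33 ± 0.17. Sst stood at −0.63 ± 0.24 with the covariate (edgeR adjusted p = 0.421) and Vip at −0.95 ± 0.24 (edgeR adjusted p = 0.0896). In 5xFAD-Dp16 against 5xFAD 23 of 29 were above 0 with the covariate (median 0.30), against 50.9% of all genes, 0 were called, against 0.0057%, and 5 had an unadjusted p under 0.05, against 4.61%, with Vip at 0.91 ± 0.27 and Gad2 at 0.24 ± 0.17 (edgeR log2 fold change ± SE). The covariate comes from the same counts and itself differs between genotypes, so in this fit dissection and genotype cannot be told apart.

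**Figure D5:**
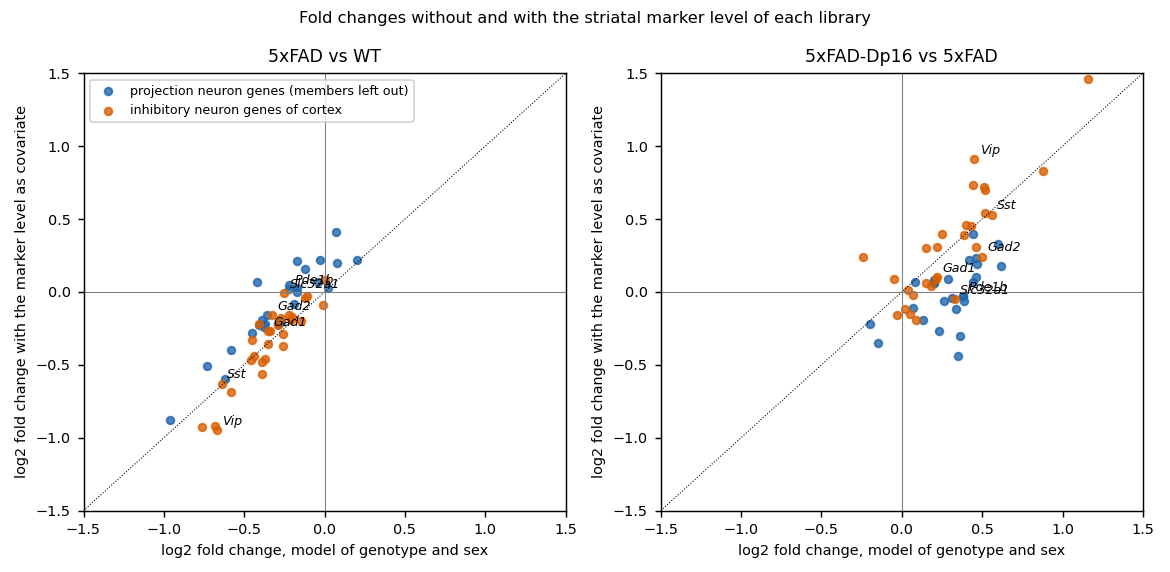
Each point is a gene, with its edgeR log2 fold change from the model of genotype and sex (x axis) and with the marker level of each library as a covariate (y axis), for inhibitory neuron genes (orange) and projection neuron genes other than the 8 markers (blue). In 5xFAD vs WT the blue points move towards 0 on the y axis (median −0.04, against −0.25 on the x axis), while the orange median is −0.27, against −0.34, with Sst and Vip at −0.63 and −0.95. Most blue genes follow the covariate from library to library, so their move was largely set by its choice.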

How the data were processed

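Per the labels' protocols, RNA was extracted with TRIzol, enriched for poly-A and made into strand-specific libraries with a Tecan/Nugen kit for paired-end Illumina sequencing. HTSeq 0.6.1, SAMtools 1.5, HISAT2 2.1.0, FastQC 0.11.5 and bcl2fastq, and the build GRCm38, are listed in the submitters' processing notes, with no settings. The authors deposited raw read counts per gene without normalization, annotated with GENCODE M24 going by the names of the deposited tables. A second deposited table holds RPKM values, which are those counts scaled by gene length and library total (implied lengths deviate from whole numbers by at most 8.5e-09).

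Counts were tested with edgeR 4.0.16 (R 4.3.3; quasi-likelihood, TMM, filterByExpr with a minimum count of 10, sex as a term, all 16 libraries in 1 fit). Permutations (100000, scipy 1.17.1) used log2 CPM. The script was tested on simulated data. The alternatives were DESeq2 1.42.0, RLE factors, no filter, no sex term, a replicate block, each library left out, only the 2 groups compared, limma 3.58.1 on log2(RPKM + 0.1) and log2(RPKM + 1), and the length slope (the regression of a library's log2 deviation on log2 gene length) as covariate or without its 3 lowest libraries. The covariate of marker level and the relations with inhibitory genes and the slope were added after seeing the data. The 8 markers and 12 gene lists were chosen with earlier results of these data known. The rule for named genes takes the 8 markers, up to 3 genes of smallest p per list and comparison, genes that define a list, and the 10 genes most like the markers. It takes 82 genes from the lists, of which the text names a selection made after their values were seen, and 1 gene it takes is not reported here. Slc32a1, Gad2, Pvalb, the list genes below the median likeness and the genes that overlap markers were otherwise chosen after their values were seen.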

Additional observations from a re-analysis of the deposited data

Results flagged for a closer look

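Rgs9 in 5xFAD-Dp16 had 1 library, replicate 4, at 14.8 RPKM, far from the other 3 at 10, 9.38 and 9.99 RPKM. Its gap to the nearest of them, divided by the range of the group, was 0.883, above the Dixon 95% critical value for 4 samples. Markers were examined in 32 groups of 4 libraries, and chance marks about 1 in 20 such groups. The same library held the highest Ttr level (1910 RPKM) and the highest Ppp1r1b and Pde10a levels of its group (191 and 19.6 RPKM), and the part of these in the Rgs9 value was not tested. Without this library, Rgs9 in 5xFAD-Dp16 against 5xFAD was not called by edgeR either.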

How the results depend on the processing

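None of the 1240 values of the 8 markers over 26 alternative settings was called, and the smallest adjusted p (edgeR without the low-count filter, 5xFAD-Dp16 against 5xFAD) was 0.103. Direction turned in 27 of them. In 5xFAD-Dp16 against wild-type Drd1 went to 0.06 and 0.05 with limma on log2(RPKM + 0.1) and log2(RPKM + 1), 0.04 with the length slope as covariate and 0.19 without the 3 libraries of lowest slope. In Dp16 against wild-type Adora2a went to 0.0025 with the slope and 0.09 without those 3 libraries, and Penk to −0.0014 with the replicate block. In 5xFAD-Dp16 against Dp16 Adora2a went to −0.01 without those 3. The cause was not tested.

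With each library left out, Drd1 ran from −0.18 to 0.20 in 5xFAD-Dp16 against wild-type and Rgs9 from −0.28 to 0.02 in 5xFAD against wild-type. In Dp16 against wild-type the ranges were −0.30 to 0.08 (Drd1), −0.30 to 0.18 (Adora2a), −0.34 to 0.01 (Ppp1r1b), −0.25 to 0.09 (Rgs9), −0.09 to 0.31 (Penk), −0.45 to 0.01 (Pde10a) and −0.02 to 0.30 (Gpr6). In 5xFAD-Dp16 against Dp16 they were −0.01 to 0.26 (Drd1), −0.04 to 0.36 (Penk) and −0.01 to 0.29 (Gpr6).

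Counts of all genes called moved more, in the order 5xFAD-Dp16, 5xFAD and Dp16 against wild-type, 5xFAD-Dp16 against 5xFAD, 5xFAD-Dp16 against Dp16, and the interaction. They were 88, 266, 1, 1, 68 and 0 by edgeR, 228, 470, 17, 27, 179 and 1 by DESeq2, and 258, 426, 20, 42, 236 and 25 with no low-count filter. Fits of only the 2 groups compared gave 9, 115, 0, 20 and 44, and the slope as covariate 358, 926, 44, 122 and 212 in the 5 pairwise comparisons. Without the 3 libraries of lowest slope, 175 genes were called in 5xFAD-Dp16 against wild-type and 15 in 5xFAD-Dp16 against 5xFAD. Leaving out single libraries gave 40 to 106, 167 to 290, 1 to 2, 1 to 8, 22 to 127 and 0 to 0.

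Replicate numbers were not taken to pair the samples. Deviations of same-numbered libraries correlated from −0.354 to 0.514, and 7 of 16 libraries were closest to their own number. The count that unpaired numbers would give was not worked out, so this check does not settle whether they pair. With the replicate number as a block, 73, 237, 0, 1, 60 and 0 genes were called, and no marker. With 4 libraries a group, the 95% interval of Adora2a in 5xFAD against wild-type ran from −0.97 to 0.56. Changes anywhere in that range are compatible with these libraries.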
